A study of Caenorhabditis elegans with 2 samples.

Results

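Chromosome V of Caenorhabditis elegans was described by its clusters of RNA 3' ends, the places where polyadenylated transcripts stop. Clusters were formed on each strand from the deposited positions: the position with most reads took the free positions within 24 nt, and a cluster was kept when it held at least 20 reads over both libraries. This gave 2842 clusters on V of 15049 on all nuclear chromosomes. They were chosen on their reads alone, and 20190 clusters of any size lay on V. At the border of the rule, 69 clusters of V had 20 reads, with a median log2 ratio of 0.12, and 74 had 19 reads, with a median of 0.54. The 2842 clusters held 96.7% of the sorted and 97.8% of the input reads of V.

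The data came from 1 library of sorted nuclei and 1 library of input nuclei, both from strain JM149 grown in liquid culture of mixed stages at 25 °C and strained to enrich adults. The sorted library carries the tissue label "intenstine" (intestine) and is labelled nuclear RNA; the input library is labelled mixed tissues and total RNA. JM149 is known as a strain in which the promoter of elt-2, a GATA factor gene of the gut, drives a nuclear green fluorescent protein, by which nuclei can be sorted. The title of the series names intestinal expression and alternative polyadenylation as its subject. The sorted library held 4709432 reads and the input library 9243831. With 1 library per group there was no replicate, so no test between the groups was possible, and the difference in the type of RNA, the batch and the sort cannot be told apart. A lower proportion of nuclei of a type and less RNA per nucleus cannot be told apart either.

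The autosomes of this worm have a gene-dense centre, where conserved and highly expressed genes collect, and arms that recombine more often and hold more repeats and more young gene families. Chromosome V is known for large families of chemoreceptors, nuclear hormone receptors, F-box proteins and enzymes of detoxification. The 3' end of an mRNA forms where the transcript is cut downstream of a polyadenylation signal, and an oligo(dT) primer then marks that place. Ends inside introns or coding sequence can come from early polyadenylation or from priming on stretches of A within a transcript, which these files cannot tell apart.

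Along V the libraries differed most on the right arm. Of its 461 clusters, 86 (18.7%) were higher by 4-fold or more in sorted nuclei, against 62 of 629 (9.86%) on the left arm and 121 of 1752 (6.91%) in the centre. Over all nuclear clusters the share was 6.53%. A cluster counted as higher when the lower bound of the exact 95% interval of its ratio, sorted over input in reads per 1000000 nuclear reads (RPM), reached 4. The arms were taken below 6 Mb and from 16 Mb of the files' positions. At a bound of 2-fold, 162 clusters of the right arm (35.1%), 133 of the left arm (21.1%) and 301 of the centre (17.2%) were higher, against 15.6% of all nuclear clusters. Few clusters were at least 4-fold lower: 4 on the right arm, 5 on the left arm and 14 in the centre, or 23 of 2842 (0.809%) against 1.09% of all nuclear clusters. At 2-fold 156 of V (5.49%) were lower, against 6.17%.

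The median log2 ratio of the clusters was 0.88 on the right arm, 0.26 on the left arm and 0.08 in the centre. The middle of the right arm's clusters, between the quartiles, ran from -0.27 to 2.31, so that many of them lay below the input level. Clusters are not replicates of a condition, so these medians carry no error between samples. Setting the clusters without reads in a library at the floor of 3 reads left all of these medians as they were.

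**Figure D1:**
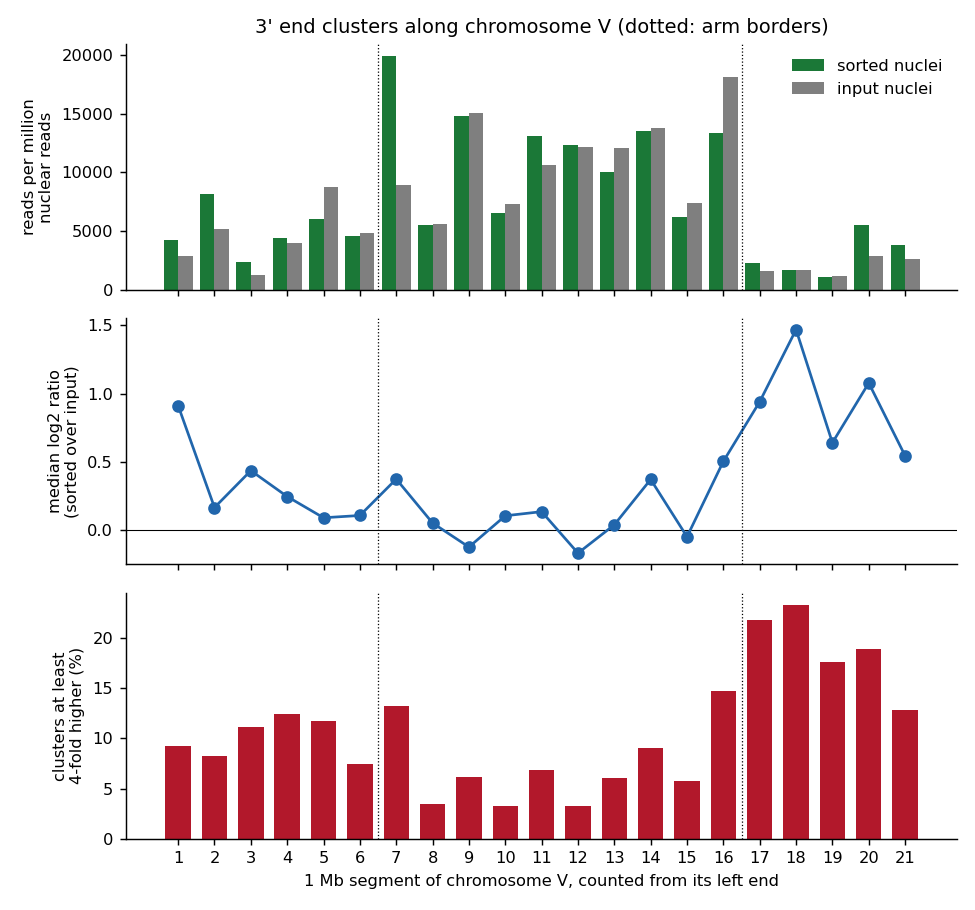
Clusters of chromosome V in 21 segments of 1 Mb, counted from the left end. The top panel gives the summed RPM of sorted (left bar) and input nuclei (right bar), the middle panel the median log2 ratio of the clusters, and the bottom panel the percent of clusters called 4-fold higher in the sorted library. Segments 17, 18, 19, 20 and 21 make up the right arm and show 21.7%, 23.3%, 17.6%, 18.9% and 12.8% in the bottom panel.

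Segment 18 had the highest median, 1.47 over 73 clusters, and segment 12 the lowest, -0.17 over 186. At the border of the centre, segment 16 had 17 of 116 clusters at least 4-fold higher (14.7%) and a median of 0.51. High shares were not confined to the right end. Segment 7, within the centre, had 22 of 166 (13.3%), above the 12.8% of segment 21. Segments 4 and 5 of the left arm had 12.4% and 11.8%. On the left, segment 1 had a median of 0.91 over 98 clusters. By summed reads the regions kept the order of their medians. Over member clusters the ratio of sorted to input RPM was 1.45 on the right arm, 1.11 on the left arm and 1.04 in the centre. The right arm gave 9.46% of the sorted and 6.97% of the input reads of V, the left arm 18.9% and 18.3%, and the centre 71.7% and 74.7%. Segment 7 stood out by reads, with 19948 RPM in sorted nuclei and 8933 RPM in input nuclei, 5295 and 737 RPM of which came from crt-1, the calreticulin gene. On the right arm, segments 17, 20 and 21 had a higher summed RPM in sorted than in input nuclei. Segment 18, with 1664 and 1719 RPM, and segment 19, with 1105 and 1162 RPM, had a slightly lower one. The arms were sparse, with 93.7 clusters per Mb on the right and 105 on the left, against 175 in the centre.

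Chromosome V as a whole held 16.504% (95% interval 16.470 to 16.537) of the sorted and 15.132% (15.109 to 15.155) of the input nuclear reads. These intervals, like all intervals and floors given here, cover counting error only. Reads from PCR without molecular identifiers are not independent molecules, so the intervals may be too narrow even for that error. Its 10 largest clusters held 26.996% of the sorted and 32.01% of the input reads of its members.

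The right arm's clusters were smaller, with a median of 55 reads over both libraries, against 69 on the left arm and 76 in the centre. Classes by reads over both libraries showed the same order of regions. The same reads form the ratio, so these classes are a description and not a control for size. Likewise, clusters rare in input nuclei pass the minimum of 20 reads mostly where their sorted reads are many. The filter therefore sets part of the shares of each region. Of clusters with at least 100 and fewer than 1000 reads, 30 of 126 (23.8%) were at least 4-fold higher on the right arm, 19 of 193 (9.84%) on the left arm and 46 of 565 (8.14%) in the centre. Of those with 20 to 99 reads the numbers were 53 of 312 (16.99%), 38 of 375 (10.1%) and 63 of 985 (6.40%). Only 23 clusters of the right arm held 1000 reads or more, and 3 of them (13.04%) were higher, beside 5 of 61 (8.20%) on the left arm and 12 of 202 (5.94%) in the centre. On the forward strand 37 of 201 clusters of the right arm (18.4%) were higher, on the reverse strand 49 of 260 (18.8%). No called cluster rested on a single position: those called in either direction spread over a median of 7 positions, and those called in neither over 8.

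**Figure D2:**
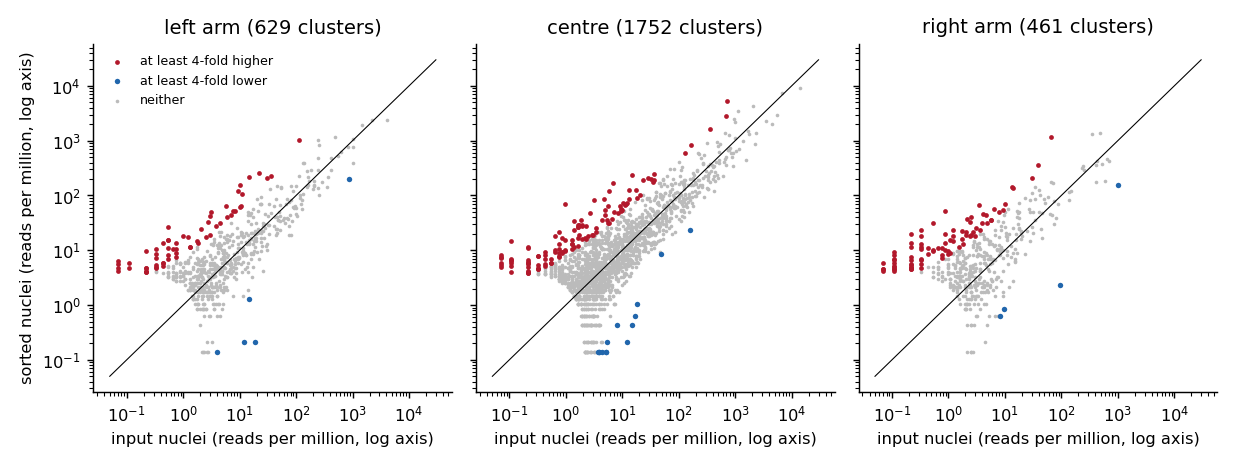
Each point is a cluster of chromosome V, with its RPM in sorted nuclei (vertical, log axis) and input nuclei (horizontal, log axis), in a panel each for left arm, centre and right arm, and the line marks equal levels. Clusters with 0 reads in a library stand at a fixed low value, 31 of them with 0 sorted and 14 with 0 input reads. The right arm shows 86 higher and 4 lower clusters among 461.

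The chromosomes were also set side by side by the outer 25% of their length at each end. The right end of V had 18.7% of 482 clusters called 4-fold higher, while the right ends of the others ran from 5.69% (X) to 7.75% (IV). The left end of V had 10.7%, and the left ends of the others ran from 5.87% (I) to 12.0% (III). In the middle part V had 6.72% of 1844 clusters, against 4.87% of 7536 on the other chromosomes together and 7.98% of 1166 on X. The median log2 ratio was 0.90 at the right end of V, and 0.54 at the left end of III, the next highest. These differences between chromosomes were not tested, since each rests on 1 library per group.

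**Figure D3:**
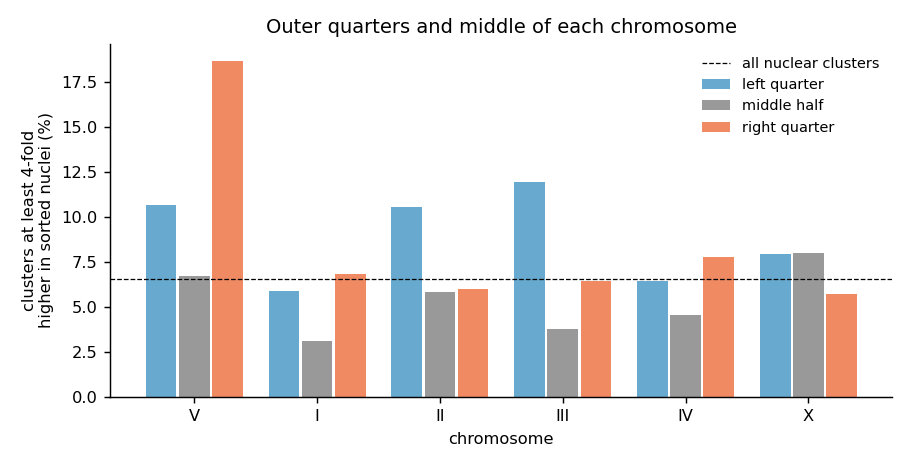
Percent of clusters called 4-fold higher in the left 25%, the middle and the right 25% of each chromosome, with the dashed line at the 6.53% of all nuclear clusters. The right end of V stands at 18.7%, and no other bar is above 12.0%.

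The clusters were also described by where they sat in their gene. Gene models of WBcel235 were placed on V by the commonest offset of each 0.5 Mb window, which ran from -4 to 37 nt and then jumped to 4611 and 4612 nt in the last 3 windows. With this, 2637 clusters took the name of 1862 protein-coding genes, 37.3% of the 4994 annotated on V, and 1615 of them were at an annotated 3' end, no more than 24 nt away. Those 1615 held 80.8% of the sorted and 83.2% of the input reads of the members. Of these clusters at annotated ends 112 (6.93%) were at least 4-fold higher, of 599 in exons past the stop codon 28 (4.67%), of 94 in introns 33 (35.1%), of 137 in coding sequence 17 (12.4%) and of 167 beyond the annotated end 25 (14.97%). Coding clusters went both ways at 2-fold, with 32 (23.4%) higher and 30 (21.9%) lower and a median log2 ratio of 0.01. Of all clusters of V 5.49% were lower at that bound. At 4-fold 6 coding clusters (4.38%) were lower. The 94 intronic clusters were small, with a median of 39 reads, and their median log2 ratio was 1.77. Of the 205 clusters without a gene name, 51 (24.9%) were higher, with a median log2 ratio of 1.06.

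On the right arm 21 of 232 clusters at annotated ends (9.05%) were at least 4-fold higher, against 32 of 370 (8.65%) on the left arm and 59 of 1013 (5.82%) in the centre. Most of the arm's higher clusters lay elsewhere. Beyond the annotated end there were 16 of 37 (43.2%), against 5.56% on the left arm and 7.45% in the centre. In the same order the shares in coding sequence were 9 of 27 (33.3%), 14.3% and 5.62%. In introns they were 11 of 24 (45.8%), 34.5% and 29.3%. In exons past the stop codon they were 9 of 62 (14.5%), 6.67% and 2.64%. Without a name they were 20 of 72 (27.8%), 14.6% and 28.2%, so the right arm did not exceed the centre there. At 2-fold 14.8%, 23.8% and 23.6% of the coding clusters were lower, in the same order. The median at annotated ends was 0.57, 0.19 and 0.02 in the same order of right arm, left arm and centre. Placement was poor in 5 windows, where under 25% of the compared positions lay within 3 nt of the offset; they held 171 of the arm's 461 clusters. Without these windows 16.9% of the arm's clusters were higher. How far misplaced gene models set the share at annotated ends was not tested.

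By gene, summing the clusters of each, 146 of 1862 (7.84%) were called 4-fold higher and 4 (0.215%) 4-fold lower. With the 2-fold bound 370 (19.9%) rose and 84 (4.51%) fell. The right arm had 42 of 284 genes at least 4-fold higher (14.8%), the left arm 37 of 429 (8.62%) and the centre 67 of 1149 (5.83%).

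On the right arm the highest bounds included chemoreceptor genes. The gene srz-99, of a large receptor family of nematodes, had 312 sorted and 18 input reads, or 66.35 RPM in sorted nuclei and 1.95 RPM in input nuclei, a ratio of 34.0 (21.2 to 58.1). Its reads split between a cluster in the coding sequence, with 72 sorted and 10 input reads, and a cluster beyond the annotated end, with 240 and 8. Its neighbour srz-100 had 63 sorted and 2 input reads, in a single coding cluster, and a ratio of 61.8 (16.403 to 521). Neither had a cluster at its annotated end as placed, so the values describe ends within and behind these gene models. Both lie in a window of poor placement (23.7% of positions within 3 nt). Whether their reads come from the annotated mRNA was not tested.

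The F-box gene fbxa-144 had 83 sorted and 3 input reads in 2 intronic clusters, with a ratio of 54.2 (17.9 to 268). F19B2.5 was the most abundant of the arm's higher genes, with 6025 sorted and 786 input reads over 10 clusters, a ratio of 15.03 (13.95 to 16.21). Its main cluster, at position 20158037 on the reverse strand, held 5433 of the sorted and 617 of the input reads and lay at an annotated end. A site in an exon before the stop codon, at 20158967, had 205 sorted and 90 input reads and a lower ratio of 4.47 (3.47 to 5.79). So the clusters of this gene did not share 1 ratio.

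Among genes of most sorted reads on the arm, asp-1, an aspartyl protease gene of the gut, had 6707 sorted and 4693 input reads, or 1426 and 509 RPM, and a ratio of 2.80 (2.70 to 2.91). Its main cluster, with 6462 and 4516 reads, lay beyond the annotated end as placed, and none lay at that end. Of its coding clusters, that at 19049564 was higher, with 161 and 69 reads. Those at 19050110, with 2 and 26, and at 19050361, with 0 and 23, were lower. The gene grsp-1 had 2218 and 5831 reads and stood at 0.746 (0.710 to 0.783). The lowest bound was that of tcc-1, with 719 sorted and 9448 input reads, or 153 and 1025 RPM, and a ratio of 0.149 (0.138 to 0.161). It was the only gene of the arm at least 4-fold lower. T03D8.6 had 1 sorted and 41 input reads in a coding cluster, a ratio of 0.0478 (0.00118 to 0.282), and Y116F11B.8 had 3 and 61 reads, a ratio of 0.0964 (0.0194 to 0.295).

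The unnamed cluster of the arm with the highest lower bound lay at 18237190 on the forward strand, with 150 sorted and 5 input reads, a ratio of 58.8 (24.7 to 184). At the other extreme, an unnamed cluster at 19868722 on the forward strand, chosen after its values were seen, had 11 sorted and 876 input reads, a ratio of 0.0246 (0.0122 to 0.0443).

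The order of the higher genes along the arm was also counted. Of the 42 on the right arm, the following measured gene was higher as well in 14 cases (33.3%), against 5 of 37 on the left arm (13.5%) and 5 of 67 in the centre (7.46%), where the shares of all genes were 14.8%, 8.62% and 5.83%. No test was made of this order. Neighbouring stretches of 50 kb between 19400001 and 19500000, chosen after their values were seen, held 8 such genes. In the first, C25F9.10 had 970 sorted and 275 input reads (ratio 6.92, 6.04 to 7.94), C25F9.5 657 and 165 (7.81, 6.57 to 9.32) and M04C3.1 1766 and 359 (9.65, 8.61 to 10.8). In the second, Y43F8B.14 had 118 and 13 reads (17.8, 10.02 to 34.4) and scl-21, of the SCP-like extracellular protein family, 121 and 28 (8.47, 5.58 to 13.3). The first stretch also held a cluster of M04C3.2 past the bound, though the gene as a whole reached 3.91 (3.38 to 4.53). How the authors treated reads that match several near-identical genes is not given, so neighbours of 1 family may share reads.

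In the centre, crt-1 was the most abundant gene with a large ratio. It encodes calreticulin, a calcium-binding chaperone of the endoplasmic reticulum, and had 24899 sorted and 6799 input reads, or 5295 and 737 RPM, a ratio of 7.18 (6.99 to 7.38). The cluster at its annotated end held 24837 and 6735 of these. A coding cluster of the same gene had 0 sorted and 35 input reads, so the direction within the gene was not uniform. The lysozyme gene lys-2 had 13597 and 6352 reads and a ratio of 4.20 (4.07 to 4.32), a call that ended at 4-fold under each of the other scalings.

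The highest bounds of the centre belonged to F35E12.9, with 823 sorted and 69 input reads (23.4, 18.3 to 30.4), C44H9.7, with 383 and 29 (25.9, 17.7 to 39.2), and the F-box gene fbxa-199, with 561 and 54 (20.4, 15.4 to 27.5). All reads of fbxa-199 were in a cluster beyond its annotated end. C25D7.9 had 28 sorted and 0 input reads in a cluster beyond its annotated end, with an exact lower bound of 13.9 on the ratio; set against a floor of 3 input reads, the ratio is 18.3. Beside crt-1, the genes of most sorted reads in the centre were rpl-38 and asp-5. The ribosomal protein gene rpl-38 had 44197 and 129628 reads, or 9399 and 14059 RPM, and stood at 0.669 (0.661 to 0.676), and the aspartyl protease gene asp-5 had 35074 and 61305 reads, or 7459 and 6649 RPM, at 1.12 (1.11 to 1.14).

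At the low end of the centre, unc-61, which encodes a septin, had 40 sorted and 452 input reads (0.174, 0.122 to 0.240). The WD-repeat gene swan-2 had 162 and 1524 (0.208, 0.176 to 0.245). In swan-2 the difference lay in the cluster at 13801341, with 110 and 1451 reads, while its cluster at the annotated end had 19 and 20, a ratio of 1.86 (0.941 to 3.68). The gene ule-3, named for expression in the uterine lumen, had 2077 and 14294 reads (0.285, 0.272 to 0.298).

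On the left arm the highest bounds were those of F31F4.1, with 126 sorted and 5 input reads (49.4, 20.6 to 155), and C17E7.13, with 112 and 7 (31.4, 14.7 to 79.8). In C17E7.13 both clusters, at the annotated end and in the exon past the stop codon, had like ratios of 32.02 and 30.9. The SCP-like gene scl-13 had 735 and 93 reads (15.5, 12.5 to 19.4) and its neighbour scl-12, chosen after its values were seen, 117 and 19 (12.07, 7.40 to 20.8). The galactosyltransferase gene galt-1 had 1035 and 137 reads, or 220.1 and 14.9 RPM (14.8, 12.4 to 17.8).

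The arm's most abundant genes in sorted nuclei were the lysozyme gene lys-7 with 11827 and 21451 reads (1.08, 1.06 to 1.11), K03B4.2 with 11043 and 38152 (0.568, 0.556 to 0.580) and T21H3.1 with 9268 and 13588 (1.34, 1.30 to 1.37). A coding cluster of T21H3.1 had 1 sorted and 172 input reads, while the cluster at its annotated end had 9267 and 13416. The lowest bounds were those of phat-4, with 946 and 8142 reads (0.228, 0.213 to 0.244), Y50D4C.3, with 9 and 128 (0.138, 0.0616 to 0.270), and sos-1, a Ras exchange factor gene, with 25 and 264 (0.186, 0.118 to 0.280). Of the reads of sos-1, 20 sorted and 242 input reads lay in a coding cluster.

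The labelled tissue was compared with marker genes that lie on V. Of 11 measured gut enzyme and structure genes 5 passed the 2-fold bound upward in sorted nuclei and 0 downward, with a median log2 ratio of 0.98, against 0.15 for all genes of V. Of all genes of V 19.9% were higher and 4.51% lower by this bound, and the counts of the lists below are to be read against these shares. The summed level of the 11 genes was 17516 RPM in sorted nuclei and 11909 RPM in input nuclei. Besides asp-1, the cathepsin B-like protease gene cpr-1, with 20755 and 19221 reads, stood at 2.12 (2.08 to 2.16), a call that ended under each other scaling. The gut esterase gene ges-1 stood at 3.21 (3.05 to 3.38), the metallothionein gene mtl-1, with 96 and 55 reads, at 3.42 (2.43 to 4.86) and cpr-2, with 19 and 7, at 5.32 (2.14 to 14.98). These 3 genes, and below dod-19, unc-68, lon-3, nhr-114, nhr-79, sru-22, sri-70 and fbxa-135, were chosen after their values were seen. The related cpr-4 stood at 1.601 (1.55 to 1.66), and cpr-5 at 1.05 (1.02 to 1.09), a direction that turned under TMM scaling and without the 100 largest clusters.

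Of the gut transcription factors 2 of 5 on V were measured. The GATA factor gene elt-7 had 33 and 17 reads (3.81, 2.06 to 7.29), a call that ended under each other scaling, and the receptor gene nhr-57 65 and 22 (5.79, 3.52 to 9.87). Of 6 immune effectors 3 were at least 2-fold higher, lys-2, lys-3 at 2.18 (2.11 to 2.25) and dod-19 at 2.83 (2.64 to 3.03), and lys-1 stood at 2.04 (1.97 to 2.12). The call of lys-3 ended under TMM scaling and without the 100 largest clusters. Of 5 lipid genes 1 was at least 2-fold higher, a share near the 19.9% of all genes. It was the desaturase gene fat-5, with 411 and 111 reads, at 7.26 (5.87 to 9.04). The lysosomal lipase gene lipl-3 stood at 2.49 (1.97 to 3.16), lipl-5 at 1.21 (0.939 to 1.54) and the acyl-CoA synthetase gene acs-2 at 0.939 (0.760 to 1.16).

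Markers of other tissues had lower medians and were not absent from sorted nuclei. Their summed levels in sorted and input nuclei were 2575 and 3876 RPM for 8 germ line and oocyte genes, 1911 and 2941 RPM for 8 body wall muscle genes, 235.4 and 958 RPM for 5 pharynx genes, 223 and 131 RPM for 4 neuronal genes, and 1071 and 1529 RPM for 9 genes of hypodermis and cuticle. Only the muscle gene unc-68 was at 0 reads in sorted nuclei, with 21 in input nuclei. The exact upper bound of its ratio was 0.377, and against a floor of 3 sorted reads it was 3.57-fold lower. The part of these tissues in the results above was not tested.

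The median log2 ratio of the germ line genes was -0.95, with 1 of 8 at least 2-fold lower, spn-4, a regulator of translation in the early embryo, at 0.401 (0.330 to 0.486). The abundant pos-1, a zinc finger gene of the same stage, had 10850 and 32295 reads (0.659, 0.645 to 0.673), oma-2 stood at 0.880 (0.814 to 0.951) and pgl-3, a P granule gene, at 0.494 (0.403 to 0.602). Muscle genes had a median of -0.96, with 2 of 8 lower, act-1 at 0.445 (0.416 to 0.476) and unc-68. Of the near-identical actin genes, act-2 at 0.492 (0.463 to 0.522) was called lower only under the other scalings, and act-3 stood at 0.743 (0.721 to 0.765); reads between these copies may be split. The cofilin gene unc-60 stood at 1.62 (1.35 to 1.95).

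Pharynx genes had a median of -1.27. The only called member was phat-4. The myosin gene myo-5 stood at 0.413 (0.313 to 0.539), phat-5 at 0.411 (0.303 to 0.548) and the troponin T gene tnt-4 at 0.369 (0.202 to 0.634). Neurons gave 1 gene in each direction, with the synaptobrevin gene snb-1 at 2.52 (2.28 to 2.78) and the prohormone convertase gene egl-3 at 0.389 (0.302 to 0.496), while sbt-1 stood at 1.27 (0.793 to 2.00) and ric-4 at 0.429 (0.160 to 0.989). In hypodermis and cuticle the median was -0.51, with 1 of 9 lower, lon-3, with 11 and 90 reads (0.240, 0.116 to 0.450). The cuticle collagen gene sqt-3 stood at 0.700 (0.677 to 0.724), and among antimicrobial peptide genes nlp-33 at 0.622 (0.481 to 0.797), nlp-31 at 0.996 (0.773 to 1.28) and nlp-29 at 0.405 (0.287 to 0.560). The single sperm gene of the list on V was not measured.

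**Figure D4:**
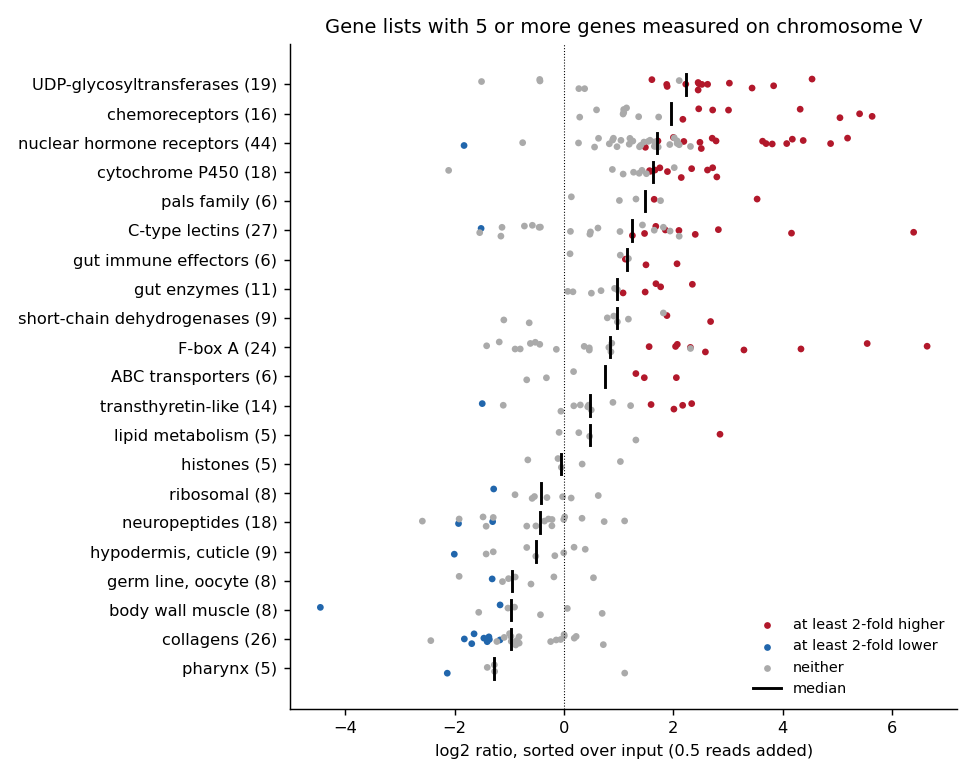
Each point is a gene of chromosome V, placed by its log2 ratio of sorted over input nuclei, in lists with 5 or more measured genes (number in brackets). Colours mark genes whose 95% interval lay past 2-fold, and black bars the median, which runs from 2.23 for UDP-glycosyltransferases to -1.27 for pharynx genes. Values of genes with 0 reads in a library, such as unc-68 (leftmost) and fbxa-135 (rightmost), depend on the 0.5 reads added.

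In the families that follow, a measured gene is one with a cluster of 20 reads or more over both libraries. A gene that is rare in input nuclei therefore enters mostly where its sorted reads are many, so the filter sets part of each count and median, which are given as descriptions beside the 19.9% and 0.15 of all genes of V. UDP-glycosyltransferases, which couple sugars to small molecules, had 13 of 19 measured genes at least 2-fold higher and 6 at least 4-fold, with a median log2 ratio of 2.23. The gene ugt-5 had 912 and 219 reads (8.165, 7.04 to 9.51), ugt-51 296 and 53 (10.95, 8.15 to 14.96), ugt-1 258 and 91 (5.56, 4.36 to 7.14) and ugt-2 806 and 429 (3.68, 3.27 to 4.15). Of 42 such genes annotated on V, 23 had no member and are not in this count. Cytochrome P450 enzymes had 10 of 18 at least 2-fold higher and 0 lower (median 1.62). On the right arm cyp-37B1 had 168 and 53 reads (6.22, 4.54 to 8.63), and on the left arm cyp-34A9 stood at 3.18 (2.62 to 3.86) and cyp-29A3 at 2.995 (2.52 to 3.57). The call of cyp-32B1 was not reached, at 2.12 (1.74 to 2.59).

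Nuclear hormone receptors had 44 of 167 genes measured, 16 at least 2-fold higher, 10 at least 4-fold and 1 lower (median 1.69). Most were of low level. The receptor gene nhr-68, which acts in the propionate shunt of the gut, had 165 and 49 reads (6.60, 4.77 to 9.28), and nhr-114, which acts in the intestine in the response to diet, 46 and 2 (45.1, 11.8 to 384). On the right arm nhr-79 had 182 and 25 reads (14.3, 9.37 to 22.6). The gene of most reads, nhr-65, stood at 4.01 (3.40 to 4.76), nhr-163 at 2.81 (2.19 to 3.63) and nhr-243 at 1.47 (1.15 to 1.88).

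Of the 869 chemoreceptor genes annotated on V only 16 were measured, 8 of them at least 2-fold and 4 at least 4-fold higher (median 1.95). Besides srz-99 and srz-100 these were sru-22, with 32 and 1 reads (62.7, 10.5 to 2555), and sri-70, with 25 and 2 (24.5, 6.11 to 213). For sru-22 and for sri-70 these reads were in a single cluster beyond the annotated end as placed. The gene sri-70 also lies in a window of poor placement. Whether the reads of either gene come from its annotated mRNA was not tested. The same filter applies to the chemoreceptor genes. F-box A genes had 9 of 24 at least 2-fold higher and 0 lower (median 0.84), and 12 of the 24 lay on the right arm. Apart from fbxa-144 and fbxa-199, fbxa-189 stood at 6.04 (4.74 to 7.76), fbxa-157 at 4.99 (3.96 to 6.33) and fbxa-95 at 0.573 (0.456 to 0.715). The gene fbxa-135 had 25 and 0 reads, with an exact lower bound of 12.33 on the ratio and a ratio of 16.3 against the floor. C-type lectins had 9 of 27 higher and 1 lower (median 1.25), with clec-54 at 3.62 (3.24 to 4.05), clec-50 at 1.39 (1.30 to 1.49), clec-41 at 0.730 (0.664 to 0.802) and clec-1 at 0.670 (0.596 to 0.752).

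In smaller lists, all 3 measured small heat shock genes were at least 2-fold higher, hsp-17 at 2.70 (2.36 to 3.10), hsp-16.2 at 7.92 (6.11 to 10.4) and hsp-16.41 at 9.02 (3.35 to 30.4), the last pair similar in sequence. All 3 measured acyltransferase homologs were higher, led by oac-39 at 14.5 (9.69 to 22.6), though the call of oac-6 at 3.36 (2.07 to 5.56) ended under each other scaling. Also higher were both glutathione transferase genes, gst-22 at 4.75 (3.22 to 7.12) and gst-38 at 5.60 (2.28 to 15.7). Of 6 ABC transporter genes 3 were higher and 0 lower (median 0.75), with pmp-5 at 2.77 (2.18 to 3.54), abt-4 at 2.49 (2.05 to 3.03), which lost the call under each other scaling, and mrp-7 at 0.623 (0.530 to 0.730). Other lists lay closer to the 19.9% of all genes. Of 14 transthyretin-like genes 4 were higher, with ttr-46 at 5.06 (4.27 to 6.02), and 1 was lower, ttr-33 at 0.353 (0.275 to 0.449). Of 9 short-chain dehydrogenases 2 were higher, with dhs-18 at 3.69 (3.39 to 4.02), and of 6 pals genes 2 were, with pals-38 at 3.15 (2.20 to 4.56).

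Collagens of the cuticle had 0 of 26 genes higher and 8 at least 2-fold lower (median -0.97), 23 of them in the centre. The gene col-160 had 9478 and 41802 reads, or 2016 and 4534 RPM (0.445, 0.435 to 0.455), col-140 stood at 0.389 (0.369 to 0.408), col-43 at 0.567 (0.541 to 0.594) and col-37 at 1.17 (1.11 to 1.22). Neuropeptide genes had 2 of 18 lower and 0 higher (median -0.43), among them flp-6 at 0.262 (0.208 to 0.325) and nlp-13 at 0.404 (0.346 to 0.470). Ribosomal protein genes had 1 of 8 lower (median -0.42), with rpl-28 at 0.538 (0.528 to 0.548) and rps-30 at 1.10 (1.06 to 1.13). No gene was called at 2-fold among 5 histone genes (median -0.05), 3 MATH-domain genes (-0.15), 4 F-box B and C genes (-0.45) and 2 major sperm protein genes (-0.56).

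These families did not hold most of the right arm's higher clusters. Of its clusters in genes of the prefix families 15 of 62 (24.2%) were at least 4-fold higher, and outside these families 71 of 399 (17.8%). In the same order the left arm had 13 of 90 (14.4%) and 49 of 539 (9.09%), and the centre 13 of 182 (7.14%) and 108 of 1570 (6.88%).

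Use of sites within genes was compared in the 1201 genes of V with at least 20 reads in each library, of which 382 (31.8%) had several sites that each took 5% or more of the reads. A shift meant a change of 20 percentage points or more in a site's share together with exact 95% intervals that did not overlap. This was so in 70 genes (18.3%), and the mean read position moved to the proximal side in 37 and to the distal side in 33. By region, 10 of 50 genes on the right arm (20.0%), 19 of 80 on the left arm (23.8%) and 41 of 252 in the centre (16.3%) had a shifted site. Among the shifted sites, 17 of 20 intronic ones were used more in the sorted library, as were 26 of 52 at annotated ends, 13 of 35 in exons past the stop codon and 3 of 10 in coding sequence.

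**Figure D5:**
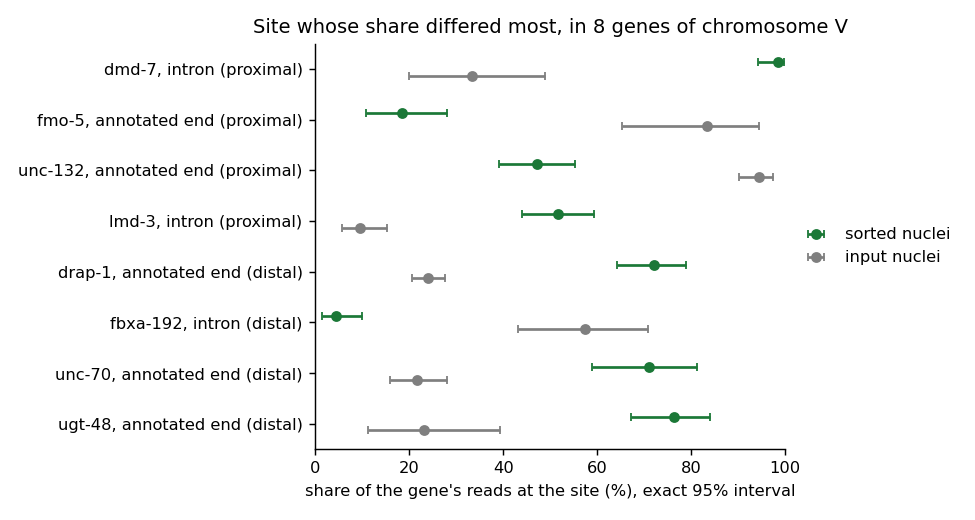
For each of 8 genes of chromosome V, the site with the widest gap between the intervals is shown, with its share of the gene's reads in sorted nuclei (upper point) and input nuclei (lower point) and exact 95% intervals. In dmd-7 the intronic site held 98.4% in sorted and 33.3% in input nuclei.

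Among proximal shifts the widest was that of dmd-7, a gene of the DM-domain transcription factors. Its intronic site at 6250126 held 98.4% (94.3 to 99.8) of 125 sorted reads and 33.3% (20.0 to 48.95) of 45 input reads. In the flavin monooxygenase gene fmo-5 the annotated end held 18.4% (10.9 to 28.1) of 87 sorted and 83.3% (65.3 to 94.4) of 30 input reads. In unc-132 the annotated end held 47.2% (39.2 to 55.2) of 159 sorted and 94.5% (90.2 to 97.3) of 183 input reads, and the intronic site at 3697042 held 31.4% (24.3 to 39.3) and 3.83% (1.55 to 7.72). In lmd-3, a LysM-domain gene, the intronic site at 8421895 held 51.7% (44.1 to 59.3) of 176 sorted and 9.64% (5.61 to 15.2) of 166 input reads. In all 4 genes a site past the stop codon or at the annotated end lost share and an intronic site gained it.

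Among distal shifts, drap-1, which encodes a subunit of a transcription repressor, had 72.1% (64.3 to 79.0) of 154 sorted and 24.0% (20.6 to 27.7) of 575 input reads at its annotated end, 315 nt past the other site. In unc-70, the beta-spectrin gene, the annotated end held 71.01% (58.8 to 81.3) of 69 sorted and 21.6% (15.9 to 28.1) of 190 input reads, and 3 sites upstream of it, past the stop codon, shared the rest. In ugt-48 the annotated end held 76.4% (67.3 to 83.9) of 110 sorted and 23.1% (11.1 to 39.3) of 39 input reads, and the other site lay in coding sequence. In fbxa-192, on the right arm, all 3 sites lay in introns of the gene model as placed, and the shift was between the site at 17645839, with 4.39% (1.44 to 9.94) of sorted and 57.4% (43.2 to 70.8) of input reads, and that at 17645403, with 74.6% (65.6 to 82.3) and 20.4% (10.6 to 33.5). This gene lies in a window of poor placement (18.7% of positions within 3 nt), and whether its sites are intronic was not tested.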

How the data were processed

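RNA 3' ends of 1 sorted and 1 input library were analysed. The authors deposited whole-number counts of reads per position and strand, not scaled. Reads had been primed with an oligo(dT) of 24 T and amplified by 12 cycles of PCR, per the labels' protocols. The submitters' processing notes list TopHat. The genome build, read filters and any treatment of A-rich or multiply mapped reads: not given in the sources used here.

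Counts were clustered over all nuclear chromosomes (24 nt, at least 20 reads) and scaled to all nuclear reads. Log2 ratios had 0.5 reads added, and intervals are exact (Clopper-Pearson, 95%). Depth was 4702544 sorted and 9220245 input nuclear reads, so that a count of 0 allows up to 3 reads, 0.638 RPM in sorted and 0.325 RPM in input nuclei.

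Positions printed are those of the files. Gene models of WBcel235 (Ensembl release 115) were placed by the commonest offset between annotated 3' ends and positions of at least 10 reads in each of 42 windows, only to name genes, and a median of 37.5% (13.0 to 52.5) of the positions lay within 3 nt. A cluster took the gene with an annotated end within 24 nt, else the only gene holding it, else the only gene ending within 300 nt upstream, and lost it if moving by 10 nt in either direction gave another gene. In the window where the offset jumps, only the 19 of 33 clusters at an annotated end under a single offset were named. Gene values are sums over clusters.

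Named genes follow a rule: in each arm and the centre the 4 highest lower bounds, the 3 lowest upper bounds and the 3 genes of most sorted reads, up to 4 genes of most reads in each of 30 lists, and the 4 widest site shifts in each direction; others are marked. Members and lists were chosen with earlier results of these data known. Steps were tested on simulated data. Alternatives used TMM of edgeR 4.0.16, size factors of DESeq2 1.42.0, read minimums, cluster widths, arm borders and site rules. Python 3.11.15 with SciPy 1.17.1 was used.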

Additional observations from a re-analysis of the deposited data

How the results depend on the processing

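With 1 library per group, depth limits which small clusters can be called, and no alternative replaces a replicate. No paired analysis was possible because each group has 1 library.

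Scaling by TMM, by median of ratios and scaling without the 100 largest clusters moved every log2 ratio by -0.08, -0.07 and -0.10. They left the right arm at 17.6%, 17.6% and 17.1% of clusters at least 4-fold higher, above the left arm and the centre each time. The centre's median log2 ratio became 0.00277 under TMM and -0.021 without the 100 largest clusters. Of 71 named genes past 2-fold, 5, 4 and 5 lost the call, and act-2 gained it each time.

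A minimum of 50 reads gave 177 higher clusters on V and a left arm median of 0.074. With no minimum the left arm, centre and right arm had 1.53%, 1.36% and 2.87% higher, and the centre's median was -0.18. Taking the observed ratio past 4-fold in place of the bound gave 494 higher and 159 lower clusters, or 17.965%, 13.8% and 30.15% higher in the 3 regions. Clusters within 12 or 48 nt and other arm borders gave 17.6% to 18.7% on the right arm, above the left arm and the centre.

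Of 2 restrictions chosen after the data were seen, keeping clusters within 24 nt of an annotated 3' end gave 8.65%, 5.82% and 9.05% (right arm median 0.57), so that both arms stood close to each other, and leaving out poorly placed windows gave 16.9% on the right arm.

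The share of V was 20.8% of sorted and 18.7% of input reads without the 100 largest clusters, and 16.412% and 15.08% within clusters of at least 20 reads.

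With sites past the stop codon or beyond the end only, 34 genes shifted, 14 proximal and 20 distal. Without the offset, in the 7 windows where it was at most 5 nt, 2 of 27 genes shifted, as many as with it.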
